A study of Mus musculus with 6 samples.

Results

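Naive and resting T cells keep a small programme of genes that antigen contact turns down, and 9 of them are described here, namely Igfbp4, Dapl1, Ccr7, Lef1, Tcf7, Satb1, S1pr1, Actn1 and Bach2. They were taken as a list of mouse gene symbols, with no threshold on their values. All 9 were found among the 49315 gene identifiers of the count tables, and all 9 were among the 12928 genes that passed a low-count filter. The data were RNA-seq counts of 6 libraries of CBir1 TCR Tg CD4 T cells from C57BL/6 mice, which carry a transgenic receptor for a flagellin of commensal gut bacteria. Each condition had 1 library, and the labels do not say whether a library pooled several mice, nor the age or sex of the mice.

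In 5 of the libraries, CD4+CD44- cells bearing CD45.1 had been given on day 0 to C57BL/6 recipients bearing CD45.2, and what remained of them in the spleen was sorted on day 63. The recipients shared an intraperitoneal immunisation on days 1 and 7, with 50 ug of the CBir1 flagellin and 1 ug of CT, and, per the protocol, a challenge with 3 ug MEP1 on day 56. MEP1 is a synthetic peptide that joins several T cell epitopes of commensal antigens. The groups differed on days 28 and 35. MEP1+CMC mice received 3 ug MEP1 and then the vehicle CMC for 5 days. MEP1+Metformin, MEP1+Rapamycin and MEP1+Metformin+Rapamycin (the combination) mice received the peptide with the named inhibitors in the vehicle. No treatment mice received neither peptide nor inhibitor at that stage. No vehicle days are given for them, so every comparison of a peptide-treated library with No treatment also holds the vehicle. The sixth library, Naive control, is labelled as naive CD4 cells of the transgenic line, and the protocol gives no transfer for it. The study compared these groups to see how microbiota-specific memory cells differ when they meet antigen under metabolic inhibition. Metformin slows mitochondrial respiration and activates AMPK, and rapamycin inhibits mTOR.

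In a naive T cell, the DNA-binding factors TCF-1 (gene Tcf7) and LEF-1, the chromatin organiser SATB1 and the repressor BACH2 hold the resting state, while CCR7 and S1PR1 bring the cell into and out of lymph nodes. FOXO factors, which antigen receptor and mTOR-linked signals keep out of the nucleus, act directly or through KLF2 on the homing receptor genes. On activation these genes fall as effector regulators such as Blimp-1 (gene Prdm1) appear, and central memory cells regain part of the programme.

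Levels are TMM CPM, that is CPM after TMM scaling, so counts relative to a library total that is corrected for differences in composition. Total counts ran from 26139000 (Naive control) to 60622310 (No treatment). All 10 CD4 T cell markers were found in every library, and the transgenic segment Trbv13-1 made up 98.9% to 99.2% of Trbv counts in all 6. Several features of the libraries moved with the groups. The Y-linked Ddx3y was at 67.9 to 95.9 TMM CPM in the 3 inhibitor libraries and at 0.301 in MEP1+CMC, whereas Xist was at 0.218 to 0.532 and at 257. Differences between an inhibitor library and MEP1+CMC and differences of sex therefore cannot be told apart. Naive control had Xist at 42.8 and Ddx3y at 0.374, and No treatment had both (23.0 and 34.2). Sex therefore also cannot be told apart from the differences of No treatment from Naive control, from MEP1+CMC and from the inhibitor libraries. The same holds for the differences between the inhibitor libraries and naive cells. The 9 macrophage and monocyte markers summed to 2958 TMM CPM in No treatment, 421 to 661 in the other transferred libraries and 60.2 in Naive control. The 7 erythroid markers summed to 1614 TMM CPM in No treatment, 377 in Naive control, 353 in MEP1+CMC and 51.0 to 101 in the inhibitor libraries. The 11 B cell markers summed to 130 TMM CPM in Naive control, 114 in the combination and 39.4 to 65.5 in the other 4 libraries, and B cells also express Ccr7 and Bach2. The 2 CD8 T cell markers summed to 30.1 TMM CPM in Naive control and 3.24 to 7.24 in the transferred libraries, highest of these in MEP1+Rapamycin. The part of these markers in the results was not tested. Ribosomal-RNA-like loci, 5 in all, took 15.4% of the counts in Naive control and 1.00% to 3.13% elsewhere. One column heading goes against its label, since the counts for No treatment stand under a name that reads as unchallenged. The label was used, and if the heading is right, comparisons with No treatment also hold the challenge on day 56.

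Of the 9 genes, 7 had a promoter window of 300 bases around the annotated start in the RefSeq sequences for GRCm38.p6. Shown are the promoters of the 4 members that were at least 2-fold higher in MEP1+Rapamycin than in MEP1+CMC (Igfbp4, Dapl1, Lef1 and Bach2) and that of Tcf7, the member that was lower there. The windows are Igfbp4 at chr11:99040994-99041293 (plus strand), Dapl1 at chr2:59484403-59484702 (plus), Lef1 at chr3:131110073-131110372 (plus), Bach2 at chr4:32417185-32417484 (plus) and Tcf7 at chr11:52282965-52283264 (minus). The Bach2 window lies 178631 bases inside the gene as the count tables draw it, at another annotated start. In the Tcf7 window an ATG upstream of the annotated start opens a reading frame with no stop before the window ends. That part of the Tcf7 window thus reads as coding sequence and not as promoter. Capitals mark matches on either strand to 4 motifs, CTTTGA (TCF and LEF), GTAAACA (FOXO), TGANTCA (AP-1 and BACH) and CCNCNCCC (KLF).
Igfbp4: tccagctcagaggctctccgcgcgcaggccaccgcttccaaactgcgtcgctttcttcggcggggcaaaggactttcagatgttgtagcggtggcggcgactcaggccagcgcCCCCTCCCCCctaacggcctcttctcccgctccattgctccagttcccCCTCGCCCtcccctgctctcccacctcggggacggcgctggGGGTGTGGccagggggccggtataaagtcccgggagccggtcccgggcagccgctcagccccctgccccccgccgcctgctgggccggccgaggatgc
Dapl1: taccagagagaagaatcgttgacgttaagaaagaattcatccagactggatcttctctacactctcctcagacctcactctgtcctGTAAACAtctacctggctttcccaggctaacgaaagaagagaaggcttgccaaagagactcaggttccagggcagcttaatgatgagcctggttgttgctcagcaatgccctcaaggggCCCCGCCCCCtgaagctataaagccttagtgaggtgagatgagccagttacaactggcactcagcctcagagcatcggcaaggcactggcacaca
Lef1: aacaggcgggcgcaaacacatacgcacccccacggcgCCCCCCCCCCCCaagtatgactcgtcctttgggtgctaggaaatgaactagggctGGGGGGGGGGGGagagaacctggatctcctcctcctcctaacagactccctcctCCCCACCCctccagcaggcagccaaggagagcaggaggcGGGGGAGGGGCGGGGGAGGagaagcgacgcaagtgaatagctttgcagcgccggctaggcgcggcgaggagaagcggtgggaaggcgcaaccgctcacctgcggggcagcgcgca
Bach2: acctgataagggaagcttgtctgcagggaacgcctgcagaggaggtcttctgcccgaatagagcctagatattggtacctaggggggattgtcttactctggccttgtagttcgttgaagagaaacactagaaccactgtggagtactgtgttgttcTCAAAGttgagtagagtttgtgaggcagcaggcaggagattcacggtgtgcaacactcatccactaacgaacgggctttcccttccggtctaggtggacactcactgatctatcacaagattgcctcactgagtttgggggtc
Tcf7: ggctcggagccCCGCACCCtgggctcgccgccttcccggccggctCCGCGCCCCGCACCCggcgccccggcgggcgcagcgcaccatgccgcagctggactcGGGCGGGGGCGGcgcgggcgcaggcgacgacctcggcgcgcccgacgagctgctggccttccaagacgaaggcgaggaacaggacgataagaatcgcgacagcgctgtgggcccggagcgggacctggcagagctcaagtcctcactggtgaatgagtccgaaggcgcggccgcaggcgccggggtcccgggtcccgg

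The KLF motif was found in 6 of the 7 windows, all but that of Bach2, and in 49.5% of all 32817 promoter windows of this length. In Tcf7 its matches at -148 to -137 lie in the reading frame named above, and its other matches lie upstream of that frame. In Igfbp4 it lay at 4 places, 2 of them overlapping, and the matches of Lef1 include unbroken runs of C and of G. The FOXO motif was found in Dapl1 alone of the 7 (3.65% of all windows), at -164 to -158 from the start. The TCF and LEF motif was found in Bach2 alone (16.0% of all windows), on the strand opposite to the gene. No match to the AP-1 and BACH motif was found in the 7 windows (7.81% of all windows). These are matches of letters, and no binding was measured.

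Fewer cells that express a gene and less RNA of it per cell cannot be told apart in these bulk samples. Igfbp4 encodes a secreted protein that binds insulin-like growth factors (chromosome 11, 99041244 to 99054392, plus strand, GRCm38). It was at 2255 TMM CPM in Naive control, 47.8 in No treatment, 84.6 in MEP1+CMC, 266 in MEP1+Metformin, 541 in MEP1+Rapamycin and 348 in the combination. All 6 levels were separated beyond counting error, and the highest transferred library was 11.3-fold above the lowest. The low end was set by the library without peptide treatment and the high end by the rapamycin library. Of the 9 genes, Igfbp4 varied most among transferred cells. It is followed at a distance of 89.8 kb by Ccr7 on the opposite strand, with 1 listed gene, Tns4, between them, which had 11 to 105 counts per library.

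Dapl1, a small gene named for its likeness to a death-associated protein (chromosome 2, 59484653 to 59505020, plus), had 201 TMM CPM in Naive control. It had 63.6 in No treatment, 29.5 in MEP1+CMC, 62.1 in MEP1+Metformin, 143 in MEP1+Rapamycin and 78.4 in the combination. MEP1+CMC was lowest and MEP1+Rapamycin came closest to naive, at 71.0% of its level. No treatment and MEP1+Metformin did not differ beyond counting error. Actn1 encodes alpha-actinin, which links actin filaments (chromosome 12, 80167542 to 80260371, minus). Its levels were 187 TMM CPM in Naive control, 42.5 in No treatment, 22.4 in MEP1+CMC, 34.6 in MEP1+Metformin, 44.4 in MEP1+Rapamycin and 34.8 in the combination. Every transferred library stayed at or below 23.8% of the naive level. Neither MEP1+Rapamycin and No treatment nor the combination and MEP1+Metformin were separated for Actn1.

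Among the homing receptors, Ccr7 binds the lymph node chemokines CCL19 and CCL21 (chromosome 11, 99144196 to 99155077, minus). Ccr7 was at 1605 TMM CPM in Naive control, 478 in No treatment, 376 in MEP1+CMC, 489 in MEP1+Metformin, 612 in MEP1+Rapamycin and 591 in the combination. The transferred libraries spanned 1.63-fold, all at or below 38.1% of naive. S1pr1 encodes the receptor for sphingosine phosphate that draws T cells out of lymphoid organs (chromosome 3, 115710433 to 115715072, minus). S1pr1 was at 728 TMM CPM in Naive control, 410 in No treatment, 286 in MEP1+CMC, 471 in MEP1+Metformin, 455 in MEP1+Rapamycin and 496 in the combination. The 3 inhibitor libraries lay close together at 62.5% to 68.2% of naive, and MEP1+CMC was the low library at 39.2%.

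Lef1 and Tcf7 encode related HMG-box factors of the Wnt pathway and did not follow the same order. Lef1 (chromosome 3, 131110471 to 131224356, plus) was at 576 TMM CPM in Naive control, 190 in No treatment, 160 in MEP1+CMC, 227 in MEP1+Metformin, 353 in MEP1+Rapamycin and 274 in the combination. Its highest transferred library was MEP1+Rapamycin, at 61.2% of naive, and all 6 levels were separated beyond counting error. Tcf7 (chromosome 11, 52252371 to 52283014, minus) was at 1668 TMM CPM in Naive control, 1929 in No treatment, 1332 in MEP1+CMC, 1526 in MEP1+Metformin, 1129 in MEP1+Rapamycin and 1461 in the combination. Tcf7 was the one member above naive in No treatment and the one member lowest in MEP1+Rapamycin, and its whole range among transferred cells was 1.71-fold.

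Satb1 folds chromatin around T cell genes (chromosome 17, 51736187 to 51833290, minus). Its levels were 721 TMM CPM in Naive control, 291 in No treatment, 149 in MEP1+CMC, 269 in MEP1+Metformin, 284 in MEP1+Rapamycin and 275 in the combination. The 4 libraries other than MEP1+CMC lay between 37.3% and 40.3% of naive, and MEP1+CMC stood at 20.7%. A transcript drawn within the Satb1 locus on the same strand, C230085N15Rik, had counts equal to 7.95% of those of Satb1. Bach2 restrains effector genes, Prdm1 among them (chromosome 4, 32238804 to 32586108, plus). Bach2 was at 66.1 TMM CPM in Naive control, 24.7 in No treatment, 34.0 in MEP1+CMC, 50.2 in MEP1+Metformin, 70.6 in MEP1+Rapamycin and 45.0 in the combination. MEP1+Rapamycin and Naive control did not differ beyond counting error for Bach2, and the other 4 libraries lay below naive.

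**Figure D1:**
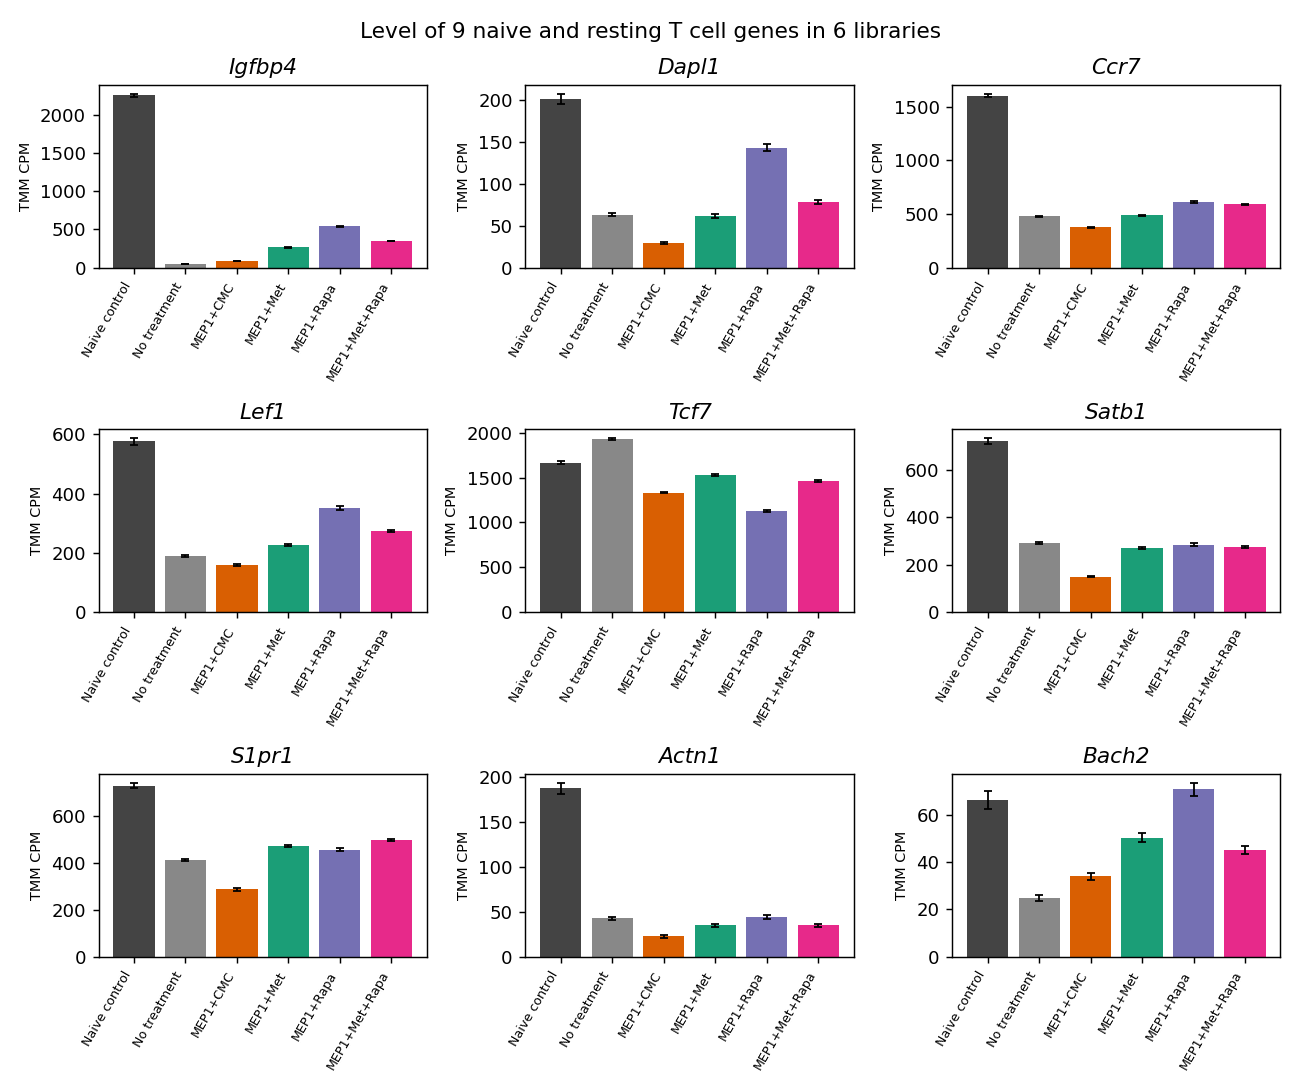
Bars give the level of each gene in TMM CPM (linear axes from 0, 1 panel per gene) in the 6 libraries, with exact 95% counting intervals as error bars and no replicate error. Naive control is the tallest bar in 7 panels, Tcf7 and Bach2 being the exceptions, and MEP1+CMC is the lowest transferred library in 6.

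Per kilobase of exon, Ccr7 was the most abundant member in Naive control (811 TMM CPM per kb), ahead of Tcf7 (635) and Igfbp4 (511). Bach2 was the least abundant there (6.65). In all 5 transferred libraries Tcf7 came first and Ccr7 second. Igfbp4 dropped to the 8th place of 9 in No treatment (10.8 TMM CPM per kb) and held the 5th place in the other transferred libraries.

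The comparison of transferred with naive cells asks what priming and memory had left of the programme. Where 2 libraries are compared, there is no replicate and no test. A gene is said to pass when it differs at least 2-fold and its exact 95% counting interval (Clopper-Pearson) excludes no change. In No treatment 7 of the 9 genes were lower than in Naive control (8.21% of all genes passed in that direction) and none was higher (15.8% of all genes). Igfbp4 had the largest log2 ratio (-5.56, interval -5.62 to -5.50, or 47.2-fold lower). It was followed by Actn1 (-2.14) and Ccr7 (-1.75), while S1pr1 (-0.83) and Tcf7 (0.21) did not pass. The median log2 ratio of the 9 genes was -1.60, against 0.03 over all genes. Of the 9 measured B cell markers, 7 were also lower in No treatment than in Naive control, as were both CD8 T cell markers, and their part was not tested.

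In MEP1+CMC 7 genes were lower than naive (9.51% of all genes), S1pr1 now among them (-1.35) and Bach2 no longer (-0.96), with a member median of -2.09. MEP1+Metformin had 6 lower (11.8%), MEP1+Rapamycin 4 (5.99%) and the combination 6 (9.98%). The 4 that passed in MEP1+Rapamycin were Actn1 (-2.07), Igfbp4 (-2.06), Ccr7 (-1.39) and Satb1 (-1.34). Dapl1 (-0.49) and Lef1 (-0.71) passed in the other 4 transferred libraries and not there. With library totals in place of TMM, every ratio to Naive control rose by 0.48 to 0.66, and 2 members passed in MEP1+Rapamycin and 2 in the combination. No member passed as higher than naive in any of these 4 libraries, where 20.2% (MEP1+CMC), 21.8% (MEP1+Metformin), 21.1% (MEP1+Rapamycin) and 21.0% (the combination) of all genes did. These 5 comparisons share the one naive library.

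**Figure D2:**
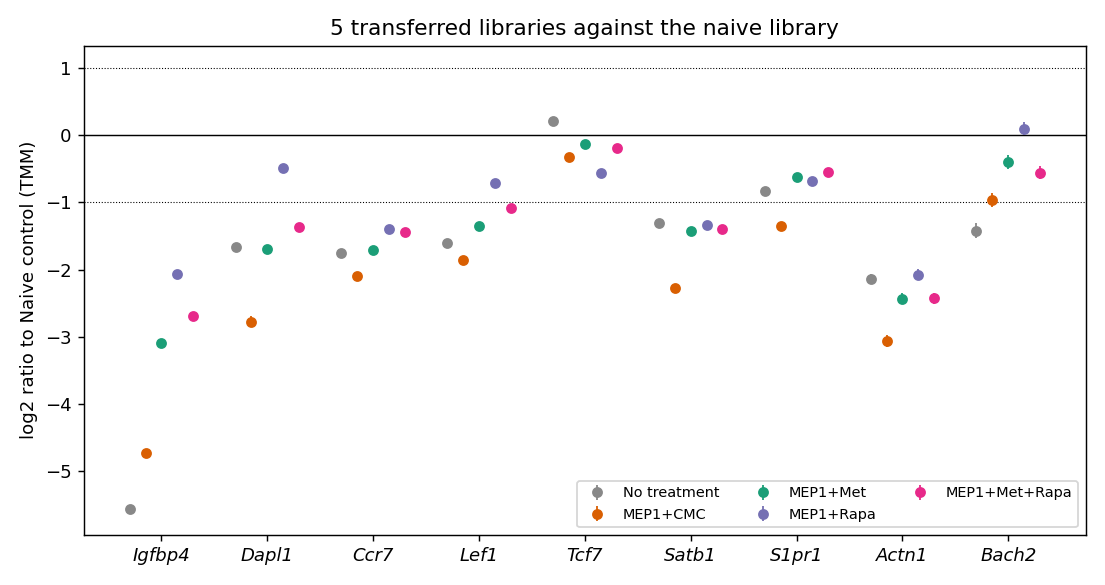
Points give the log2 ratio of each of the 5 transferred libraries to Naive control (vertical axis, TMM scaling) for the 9 genes, with 95% counting intervals, which are mostly narrower than the points, and dotted lines at 2-fold. Igfbp4 spans -5.56 to -2.06, and Tcf7 and Bach2 are the genes with a point above 0.

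A model of the 5 transferred libraries against Naive control (edgeR quasi-likelihood, Benjamini-Hochberg over all genes) takes its error from the spread between transferred libraries, treatment differences included. It called 3 of the 9 genes as fallen and none as risen, against 5.90% of all genes fallen and 4.51% risen. Actn1 fell by 2.39 on the log2 scale (SE 0.28, edgeR adjusted p = 0.0027), Ccr7 fell by 1.66 (SE 0.25, adjusted p = 0.0072) and Satb1 fell by 1.51 (SE 0.30, adjusted p = 0.020). Each was lower in 5 of 5 libraries, although Satb1 lost the call with library totals (edgeR adjusted p = 0.073). Igfbp4 had the largest difference (-3.13) with a wide error (SE 0.98, edgeR adjusted p = 0.10), since the transferred libraries themselves differed. Lef1 was at -1.26 (SE 0.34, edgeR adjusted p = 0.052). Without MEP1+Rapamycin 6 members fell, with Igfbp4 (edgeR adjusted p = 0.045), Dapl1 (adjusted p = 0.045) and Lef1 (adjusted p = 0.026) added. The DESeq2 Wald test also called 6 on all libraries, adding Igfbp4, Lef1 and S1pr1 to Actn1, Ccr7 and Satb1.

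MEP1+CMC was set against No treatment, a comparison without an inhibitor that holds the peptide and the vehicle together. Only Dapl1 passed (63.6 against 29.5 TMM CPM, log2 ratio -1.11, interval -1.19 to -1.03), in a comparison where 3.51% of all genes passed as lower. None passed as higher, against 8.69% of all genes. Satb1 (-0.96) and Actn1 (-0.92) lay just under 2-fold lower, and with no low-count filter in the scaling a second member passed. Igfbp4 (0.82) and Bach2 (0.46) lay above 0. The member median was -0.52, and that of all genes 0.01. The 2 libraries also differed in sex-linked genes (Ddx3y at 0.301 in MEP1+CMC and 34.2 in No treatment) and in erythroid markers (353 and 1614 TMM CPM). Prdm1, whose product opposes the resting programme, was at 13.3 TMM CPM in No treatment and 55.6 in MEP1+CMC. Foxp3, the regulatory T cell factor, was at 7.54 and 50.8, and the macrophage markers were higher in No treatment as given above. The part of each was not tested.

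With all 4 peptide-treated libraries set against No treatment (edgeR quasi-likelihood), none of the 9 genes passed, against 0.364% of all genes risen and 0.990% fallen. At an unadjusted p under 0.05, 1 member passed, Bach2 (1.01 higher, SE 0.36, edgeR adjusted p = 0.22), which was higher in 4 of 4 libraries. By the DESeq2 Wald test none passed after adjustment and 3 did at an unadjusted p under 0.05 (Bach2 and Igfbp4 up, Tcf7 down). Igfbp4 was also higher in 4 of 4 libraries (2.69, SE 1.16, edgeR adjusted p = 0.34). Without MEP1+CMC, Igfbp4 rose by 3.01 (edgeR adjusted p = 0.033).

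Each inhibitor library was set against MEP1+CMC, which received the peptide and the vehicle only. Markers of other cells moved in the same comparisons. All 5 erythroid markers that passed the low-count filter were at least 2-fold lower in each inhibitor library than in MEP1+CMC. Both NK cell markers that passed it, Klrb1c and Klre1, were lower with rapamycin and with the combination. All 5 listed NK cell markers summed to 3.01 and 1.68 against 8.99 TMM CPM. Of these, Ncr1 (1.625 against 0.921), Klra4 (0.325 against 0.201) and Klra8 (0.177 against 0.117) did not pass the filter and were higher with rapamycin. Their part was not tested. With metformin, Igfbp4 (log2 ratio 1.65, interval 1.60 to 1.70) and Dapl1 (1.08, interval 0.99 to 1.16) passed as higher, 2 of 9 where 3.12% of all genes did. The other 7 members lay above 0, from Tcf7 (0.20) to Satb1 (0.85), and the median was 0.63 (all genes -0.01). With rapamycin 4 of 9 passed as higher, where 7.40% of all genes did. Igfbp4 was at 2.68 (interval 2.63 to 2.72), Dapl1 at 2.28 (2.20 to 2.36), Lef1 at 1.14 (1.10 to 1.18) and Bach2 at 1.06 (0.97 to 1.14). Actn1 (0.99) and Satb1 (0.93) came close to 2-fold, Tcf7 lay below 0 (-0.24), and the median was 0.99 (all genes 0.03). With no low-count filter in the scaling, every ratio of this comparison fell by 0.16 and 2 members passed, Igfbp4 and Dapl1.

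With the combination, Igfbp4 (2.04) and Dapl1 (1.41) passed as higher, where 3.22% of all genes did, and the median was 0.77 (all genes 0.00). No member passed as lower than MEP1+CMC in any of the 3, where 2.76% of all genes (metformin), 4.49% (rapamycin) and 3.64% (the combination) did. MEP1+CMC is shared by the 3 comparisons and was the lowest transferred library for 6 of the 9 genes. Each inhibitor library was therefore also set against No treatment as the reference. This second comparison holds the peptide, the vehicle and the inhibitor together and is not the same contrast. At that reference MEP1+Metformin had 2 members higher, Igfbp4 (2.48) and Bach2 (1.03), where 10.4% of all genes passed, and the median was 0.03. MEP1+Rapamycin had 3, Igfbp4 (3.50), Bach2 (1.52) and Dapl1 (1.17), where 11.9% passed, with a median of 0.36. The combination had 1, Igfbp4 (2.86), where 9.46% passed, with a median of 0.30. No member passed as lower (4.37%, 5.04% and 4.41% of all genes in the same order). Satb1, at 0.85 to 0.93 from MEP1+CMC, was at -0.12 to -0.03 from No treatment, and Actn1, at 0.63 to 0.99, was at -0.30 to 0.06. Dapl1 with metformin went from 1.08 to -0.03.

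**Figure D3:**
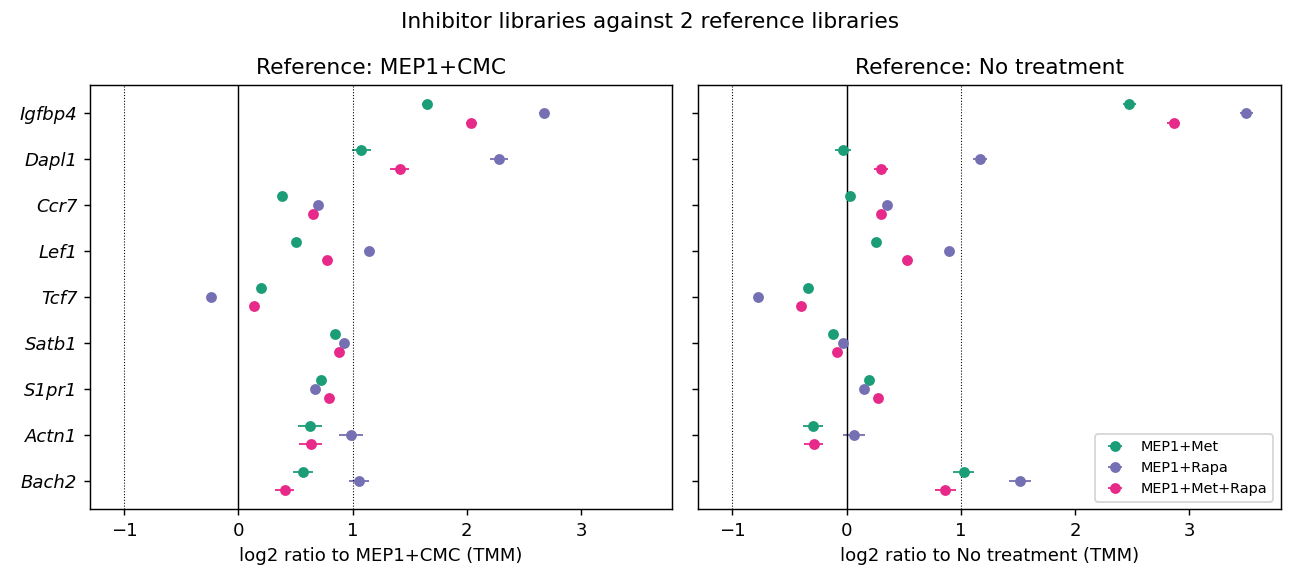
Points give the log2 ratio (horizontal axis, TMM scaling) of the 3 inhibitor libraries to MEP1+CMC (left) and to No treatment (right) for the 9 genes, with 95% counting intervals and dotted lines at 2-fold. Igfbp4 lies beyond 2-fold in both panels, while Satb1 moves from 0.85 to 0.93 on the left to -0.12 to -0.03 on the right.

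Set against each other, MEP1+Rapamycin was higher than MEP1+Metformin for Igfbp4 (1.03, interval 0.99 to 1.06) and Dapl1 (1.20, interval 1.14 to 1.27), where 6.03% of all genes passed. None of the 9 passed as lower (2.93% of all genes), and Tcf7 was at -0.44. The combination did not pass against MEP1+Metformin for any member (1.22% of all genes higher and 1.90% lower). Against MEP1+Rapamycin it also passed for none (2.38% higher and 4.60% lower), the nearest being Dapl1 (-0.87) and Igfbp4 (-0.64). The combination lay between the single inhibitors for 7 members and below MEP1+Rapamycin for 7. Of all 12928 genes, 6807 were lower in the combination than in MEP1+Rapamycin. The share of all genes that lay between the single inhibitors was not taken. S1pr1 was highest in the combination and Bach2 was lower there than with either inhibitor alone. The B cell markers were highest of the transferred libraries in the combination, as given above, with 7 of the 9 measured genes at least 2-fold higher than in MEP1+CMC, and their part was not tested.

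In the 4 peptide-treated libraries the metformin difference can be read without rapamycin and with it, from separate pairs of libraries. For Igfbp4 it was 1.65 without and -0.64 with rapamycin, and for Dapl1 1.08 and -0.87. For Tcf7 (0.20 and 0.37) and S1pr1 (0.72 and 0.13) both were above 0. The difference between these contrasts, the departure from additivity on the log2 scale, was below 0 for 8 of 9 members, with a median of -0.89. Over 12879 genes with counts in all 4 libraries the median departure was -0.02 and 51.8% lay below 0. Igfbp4 (-2.29) and Dapl1 (-1.94) departed most and Tcf7 was at 0.18. With 1 library per cell of this layout the departure had no replicate and was not tested. MEP1+CMC alone of the 4 libraries had high Xist (257 TMM CPM) and low Ddx3y (0.301), so the departure and differences of sex cannot be told apart.

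**Figure D4:**
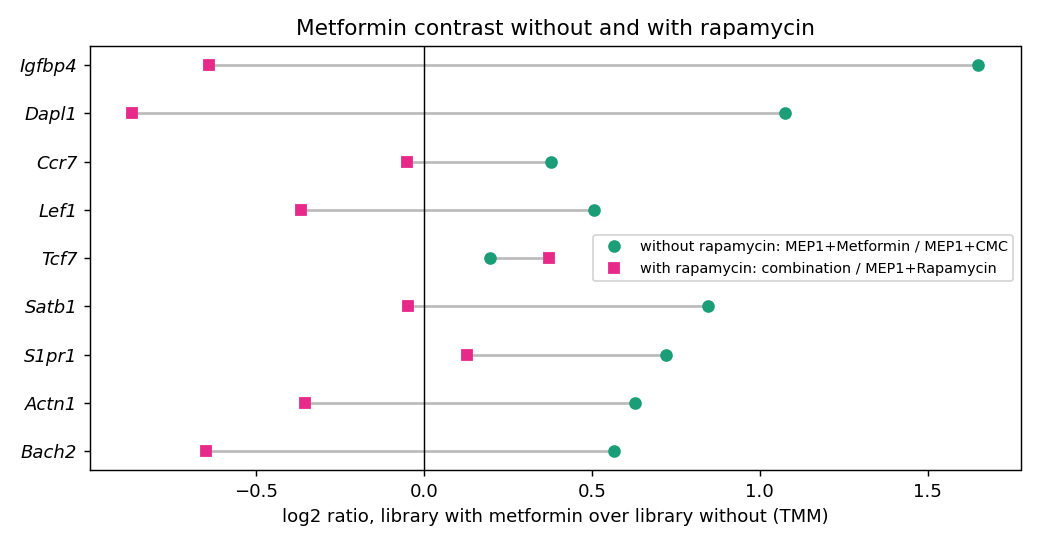
Circles give the log2 ratio of MEP1+Metformin to MEP1+CMC and squares that of the combination to MEP1+Rapamycin for the 9 genes (horizontal axis, TMM scaling), joined by a grey line. All 9 circles lie above 0, and 7 squares lie below 0, Tcf7 (0.37) and S1pr1 (0.13) being the exceptions.

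The additive model of these 4 libraries (edgeR quasi-likelihood) takes its error from that departure and pools it in part over genes. No member passed for metformin, against 0.0232% of all genes risen and 0.101% fallen, and none for rapamycin, against 0.0696% risen and 0.162% fallen. At an unadjusted p under 0.05, S1pr1 passed for metformin (0.42 higher, SE 0.18, edgeR adjusted p = 0.44) and Lef1 (0.70, SE 0.21, adjusted p = 0.47) and Ccr7 (0.49, SE 0.18, adjusted p = 0.54) for rapamycin. By the DESeq2 Wald test none passed after adjustment, with 1 and 4 at an unadjusted p under 0.05. Both rapamycin libraries were above both others for Igfbp4, Dapl1, Ccr7, Lef1, Satb1 and Actn1, and the share of all genes with that order was not taken. When only genes with at least 10 CPM in every library were fitted, Igfbp4, Dapl1 and Lef1 rose with rapamycin (edgeR adjusted p = 2.69e-15, 2.26e-12 and 0.000920), with 1 residual degree of freedom. That filter changed the fitted genes, the scaling and the number of tests together, and the cause of the added calls was not tested. Under the main scaling the departures of Igfbp4, Dapl1 and Lef1 were -2.29, -1.94 and -0.87. These p-values therefore do not rest on the departure of each gene alone.

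The share of the naive level regained was taken as the distance from MEP1+CMC to the inhibitor library, in percent of the distance from MEP1+CMC to Naive control. It is given for the 7 members at least 2-fold lower in MEP1+CMC than in Naive control, and the same library sets both that choice and the starting point. Dapl1 regained 66.1% in MEP1+Rapamycin (counting interval 62.7% to 69.5%), 28.4% in the combination and 19.0% in MEP1+Metformin. Lef1 regained 46.3% (44.3% to 48.3%), 27.3% and 16.1% in the same order. S1pr1 regained 38.2%, 47.7% and 41.9%, and was the one gene with its lowest share under rapamycin.

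For Igfbp4, the gene with the largest fold differences between the libraries, the share was small, at 21.0% in MEP1+Rapamycin, 12.1% in the combination and 8.34% in MEP1+Metformin. Ccr7 regained 19.2%, 17.5% and 9.19% in that order. Satb1 regained 23.6%, 22.0% and 20.9%, nearly the same in each. Actn1 regained the least, at 13.4%, 7.53% and 7.43%. Of the other 2 members, Bach2 in MEP1+Rapamycin reached 107% of the naive level and Tcf7 fell farther from it, to 67.7%.

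The median share of the 7 members was 16.1% with metformin, 23.6% with rapamycin and 22.0% with the combination. Over the 1229 genes at least 2-fold lower in MEP1+CMC than naive, the medians were -1.37%, 26.9% and 4.82%. The member medians thus lay above the median of all such genes with metformin and with the combination, and below it with rapamycin. Measured from No treatment, Dapl1 in MEP1+Rapamycin (57.7%), Lef1 there (42.2%) and Igfbp4 there (22.4%) had shares near those from MEP1+CMC. From the same start, Satb1 had shares of -5.17% to -1.50%, Actn1 of -5.44% to 1.34%, and Dapl1 in MEP1+Metformin of -1.04%. The medians of the same 7 genes from No treatment were 0.971%, 14.1% and 10.8%. Of these, S1pr1 was not 2-fold lower than naive in No treatment, whereas Bach2 was, and Bach2 regained 61.7%, 111% and 49.0% from there. Over the 7 genes that were 2-fold lower in No treatment, the medians were 0.971%, 22.4% and 10.8%.

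**Figure D5:**
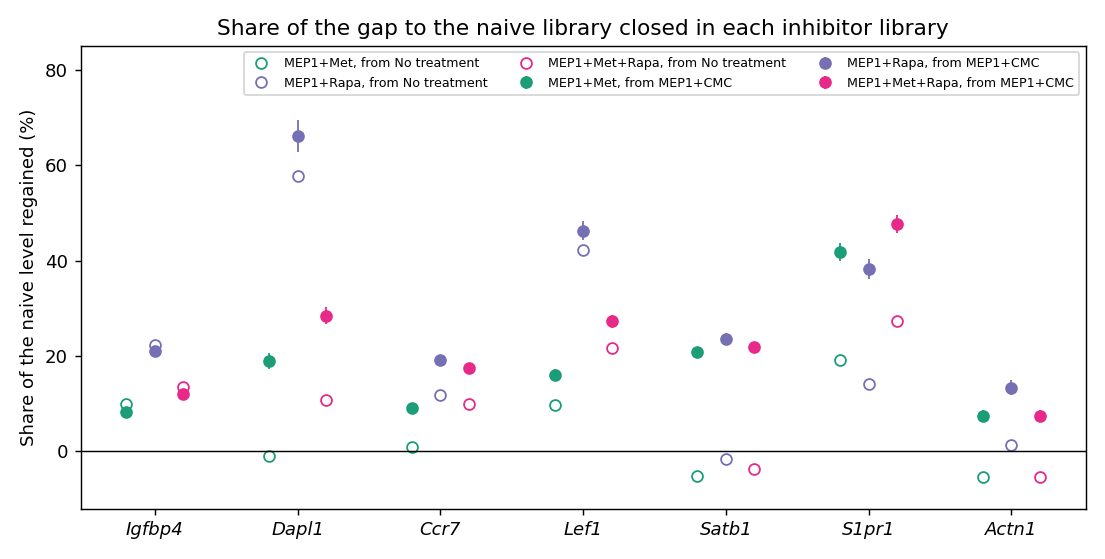
Points give the share of the distance to the naive level regained (percent, linear axis) for the 7 genes in the 3 inhibitor libraries, from MEP1+CMC (filled, with 95% counting intervals) and from No treatment (open). Dapl1 and Lef1 in MEP1+Rapamycin stay above 40% from either start, and the open points of Satb1 lie below 0.

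A further 22 genes of the naive and resting programme were counted in the same way. In No treatment 6 were lower than naive and none higher (8.21% and 15.8% of all genes). The 6 were led by the gut homing receptor gene Ccr9 (2.30 against 45.0 TMM CPM, -4.29) and Treml2 (10.3 against 69.4 TMM CPM, -2.75). The kinase gene Txk (-1.67) and the PI3K inhibitor gene Pik3ip1 (-1.56) came next. In the model of transferred against naive cells, 3 of the 22 fell (edgeR quasi-likelihood), Ccr9 (-3.00, adjusted p = 0.0056), Id3 (-1.31, adjusted p = 0.0098) and Klf2 (-1.02, adjusted p = 0.030). Against MEP1+CMC, rapamycin went with 2 higher, Treml2 (2.06) and Pik3ip1 (1.02), metformin with 2, Treml2 (1.18) and Sidt1 (1.03), and the combination with 3, Treml2 (1.27), the IL-7 receptor gene Il7r (1.07) and Pik3ip1 (1.01). None was lower in these 3 comparisons, where 4.49% (rapamycin), 2.76% (metformin) and 3.64% (the combination) of all genes were. As shares of the 22 the counts stand beside 3.12%, 7.40% and 3.22% of all genes higher with metformin, rapamycin and the combination, and the medians were 0.35, 0.35 and 0.33 in that order. From No treatment, metformin had 1 higher, Ccr9 (1.77), rapamycin 3 higher, Treml2 (1.68), Ccr9 (1.38) and Txk (1.17), and 1 lower, Tob1 (-1.53), and the combination 1 higher, Ccr9 (1.38), and 1 lower, Tob1 (-1.27). At that reference 10.4%, 11.9% and 9.46% of all genes were higher and 4.37%, 5.04% and 4.41% lower. The medians of the 22 were 0.17, 0.20 and 0.14.

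Among the 9 of these genes that were at least 2-fold lower in MEP1+CMC than naive, the median share regained was 19.7% with metformin, 42.6% with rapamycin and 21.7% with the combination. With rapamycin the shares ran from -0.64% for Ccr9 to 54.9% for Tdrp.

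Of 13 genes that mark antigen-experienced cells, all 13 were higher in No treatment than in naive cells, with a median of 4.40, and 12 rose in the model of transferred cells. Against MEP1+CMC, rapamycin went with 6 lower, led by Ccl5 (-2.50), Prdm1 (-2.30), Bhlhe40 (-2.18) and Cxcr3 (-1.24), and 1 higher, S100a4 (1.15). Metformin went with 3 lower (Ccl5 -1.68, Bhlhe40 -1.55 and Prdm1 -1.18) and 2 higher (Itgb1 1.07 and S100a4 1.02), and the combination with 4 lower and none higher. Over all genes 4.49%, 2.76% and 3.64% were lower with rapamycin, metformin and the combination, and 7.40%, 3.12% and 3.22% higher. In No treatment against Naive control 15.8% of all genes were higher. MEP1+CMC was itself higher than No treatment for 3 of the 13 (Prdm1 2.06, Ccl5 2.03 and Bhlhe40 1.32), where 8.69% of all genes were. From No treatment rapamycin had 2 lower, Cxcr3 (-1.52) and Tbx21 (-1.02), metformin had 1 higher, Itgb1 (1.04), and the combination had none. At that reference 5.04%, 4.37% and 4.41% of all genes were lower with rapamycin, metformin and the combination, and 11.9%, 10.4% and 9.46% higher. In the additive model Cxcr3, a receptor of inflamed tissue homing, fell by 1.01 with rapamycin (SE 0.16, edgeR adjusted p = 0.019). The call was lost with no low-count filter (edgeR adjusted p = 0.93) and with rapamycin as the only term (adjusted p = 0.86). Prdm1 was at 11.3 TMM CPM in MEP1+Rapamycin, 24.5 in MEP1+Metformin and 23.4 in the combination, against 55.6 in MEP1+CMC, 13.3 in No treatment and 5.29 in Naive control. Of the 5 transferred libraries, MEP1+Rapamycin thus had the lowest Prdm1 and the highest Bach2. That order did not hold elsewhere, since No treatment was next lowest in Prdm1 and had the lowest Bach2 (24.7 TMM CPM). MEP1+CMC, highest in Prdm1, had more Bach2 (34.0) than No treatment. MEP1+Rapamycin also had the highest Foxp3 (126 TMM CPM, against 7.54 to 71.4 in the other transferred libraries and 13.8 in naive), and the 9 regulatory T cell markers summed to 745 against 359 to 650. Against MEP1+CMC, 2 of the 9 were at least 2-fold higher there, Foxp3 and Gpr83, and 1 lower, Il10 (3.04 against 42.4 TMM CPM), and Ctla4 was at 103 against 169 and Ikzf2 at 47.5 against 60.7. Their part was not tested.

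The genes most like a member were sought by the root-mean-square difference of centred log2 levels over the 6 libraries, among 10828 genes. For Igfbp4 they were Ampd1 (0.37), Myo6 (0.38) and Sorcs2 (0.55). For Dapl1 they were Nme4 (0.17), Gm13546 (0.24) and B430306N03Rik (0.24), and for Ccr7 they were Bbc3 (0.08), Prkd3 (0.10) and Uck2 (0.10). Myo6 was at 116 TMM CPM in Naive control, 4.33 in No treatment, 5.92 in MEP1+CMC, 20.4 in MEP1+Metformin, 24.3 in MEP1+Rapamycin and 20.5 in the combination. Among the members, Ccr7 was closest to Satb1 (0.20) and Lef1 (0.21), and Igfbp4 and Tcf7 were farthest apart (1.87). All of these distances rest on the same 6 libraries.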

How the data were processed

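RNA was sequenced from 6 libraries of CD4 T cells, 1 library per condition. Gene counts were deposited by the authors as raw counts per gene. Per the submitters' processing notes, reads were trimmed with Trimmomatic 0.36, aligned to GRCm38 with STAR 2.5.2b and counted with featureCounts of Subread 1.5.2. Strand setting, annotation release and treatment of reads with several alignments are not given in the sources used here, and overlapping transcripts can share counts with a gene. Mouse numbers per library and the numbers of sorted cells are likewise not given.

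Genes with at least 2 CPM and 10 counts in at least 1 library were kept (12928 of 49315), and scaled by TMM in edgeR 4.0.16 (R 4.3.3). Scaling without that filter was an alternative. Ratios of libraries carry exact Clopper-Pearson 95% intervals, which cover counting error only, and a count of 0 was set to a floor of 3 counts. The 3 edgeR quasi-likelihood fits (5 transferred against naive, 4 MEP1 against No treatment, and metformin plus rapamycin over 4 libraries, with 4, 3 and 1 residual degrees of freedom) were adjusted by Benjamini-Hochberg at 0.05. They treat libraries of different treatments as if they were replicates. Their p-values set a difference against the spread between these libraries, pooled in part over genes. In the fits of transferred cells and of MEP1, a single library (Naive control or No treatment) stood alone on one side. It adds nothing to that spread and was assumed to vary like the others. DESeq2 1.42.0 was an alternative, as were other scalings, filters, a 1.5-fold rule, other reference libraries and leaving out each library. The tests were tried on simulated counts. Promoters and motifs were read from RefSeq sequences for GRCm38.p6. Figures and intervals used Python 3.11.15, scipy 1.17.1, pandas 2.3.3 and matplotlib 3.10.9.

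The 9 genes, the motifs and the other lists were chosen with earlier results of these data known. All 9 genes are named with every library. Genes of the other lists are named where they passed, at most the 4 with the largest change in a direction. For likeness, the 3 nearest genes with at least 5 CPM in a library are named, on log2 levels with a pseudocount of 0.5 CPM. Klf2 and Id3 are named because they passed the fit of transferred cells, and were chosen after their values were seen, as were Cxcr3 in the additive fit, and Foxp3 and Myo6. A single gene of the list of other naive and resting genes is not reported here and was left out of its counts and medians.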

Additional observations from a re-analysis of the deposited data

Results flagged for a closer look

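For 7 of the 9 genes the metformin contrast differed in sign between the libraries without and with rapamycin. It is given first as MEP1+Metformin against MEP1+CMC and then as the combination against MEP1+Rapamycin, on the log2 scale. Igfbp4 was at 1.65 and -0.64, and Dapl1 at 1.08 and -0.87, the widest pairs. Bach2 was at 0.56 and -0.65, Lef1 at 0.51 and -0.37, and Actn1 at 0.63 and -0.35. For Ccr7 (0.38 and -0.05) and Satb1 (0.85 and -0.05) the second value lay near 0. The rapamycin contrast changed sign for Bach2, at 1.06 without metformin and -0.16 with it. Each contrast rests on 1 library per group, and the difference between them was not tested. The metformin contrast without rapamycin uses MEP1+CMC, the lowest transferred library for 6 of the 9 genes, and so does the rapamycin contrast without metformin. Sex-linked genes set MEP1+CMC apart from the inhibitor libraries, so these changes of sign and differences of sex cannot be told apart. Set against No treatment instead, MEP1+Metformin was at -0.03 for Dapl1, -0.12 for Satb1 and -0.30 for Actn1. It lay above 0 there for Ccr7 (0.03), Lef1 (0.26), Bach2 (1.03) and Igfbp4 (2.48). The share of all genes with such a change of sign was not taken.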

How the results depend on the processing

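With 1 library per condition, no ratio between libraries has a replicate error, and depth limits none of the 9 genes, whose counts ran from 1238 to 116599. With library totals, members lower than naive numbered 2 in MEP1+Rapamycin and 2 in the combination. For MEP1+CMC against No treatment, a 1.5-fold rule gave 1 higher and 3 lower, and no low-count filter gave 2 lower. At 1.5-fold, members higher than MEP1+CMC numbered 5 with metformin, 8 with rapamycin and 7 with the combination. With no low-count filter 2 were higher with rapamycin, and with No treatment as the reference 1 was higher with the combination. Dapl1 with metformin turned to -0.033 at that reference.

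The median share regained with metformin, rapamycin and the combination was 14.8%, 21.8% and 20.7% when scaled by DESeq2, 35.0%, 39.4% and 42.9% with library totals, and 19.4%, 27.9% and 25.3% with the stricter filter of 10 CPM in every library. It was 0.971%, 14.1% and 10.8% from No treatment and 34.8%, 49.7% and 41.8% on the log2 scale, and 18.7% with rapamycin and no low-count filter. Over the genes 2-fold lower in No treatment itself, an alternative chosen after seeing the data, it was 0.971%, 22.4% and 10.8%. Shares that turned negative from No treatment were those of Dapl1 with metformin (-1.04%), Satb1 with metformin, rapamycin and the combination (-5.17%, -1.50% and -3.68%) and Actn1 with metformin (-5.44%) and the combination (-5.33%).

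Members that fell in transferred cells numbered 6 by the DESeq2 Wald test and 3 to 6 when a library was left out (4 without No treatment, adding Lef1, and 6 without MEP1+Rapamycin). Members that rose with MEP1 numbered 0 to 1 when a library was left out. With the stricter filter 3 members rose with rapamycin. Over all genes, 583 rose and 763 fell in transferred cells, against 2424 and 182 with library totals, 2156 and 1615 by DESeq2, 1287 and 1074 with edgeR's legacy estimate of the spread, 1486 and 1356 without No treatment, 394 and 376 without MEP1+CMC, 318 and 389 without MEP1+Metformin, and 309 and 334 without the combination. For MEP1 the counts were 47 and 128, against 888 and 275 by DESeq2, 1 and 6 with the stricter filter, 141 and 249 with no filter, 186 and 158 without MEP1+CMC, 9 and 64 without MEP1+Metformin, and 23 and 79 without the combination. For metformin they were 3 and 13, against 71 and 168 with the stricter filter, 4 and 20 by DESeq2, 5 and 13 with its size factors, 3 and 8 with library totals, and 0 and 0 with no filter or with metformin as the only term. For rapamycin they were 9 and 21, against 82 and 84 with the stricter filter, 24 and 52 by DESeq2, 5 and 14 with library totals, 2 and 0 with rapamycin as the only term, and 0 and 0 with no filter. The causes were not tested. Of the other values under an alternative, 175 main counts and medians stayed within the limits set for no change. The additive fit could not be run with a library left out, since no residual degree of freedom remains. No paired analysis was possible because each condition has 1 library.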
